A study of Mus musculus with 2 samples.

Results

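Wnt-driven pericentral zonation genes are transcripts that hepatocytes around the central vein of the liver lobule make under Wnt/beta-catenin control. The 10 genes described here were taken as a list from knowledge of that pathway: Glul, Rhbg, Lect2, Lgr5, Axin2, Nkd1, Rnf43, Znrf3, Tbx3 and Sp5. The list was chosen with earlier results of these data known. They are 10 of 18193 genes named on the array and are read by 21 probe sets, each of which combines several short probes of a transcript. Mice of the Ad-PDK4 group were C57BL/6J, 2 months old, and were given 1000000000 plaque-forming units of Ad-PDK4, an adenovirus that overexpresses pyruvate dehydrogenase kinase 4, into the tail vein. The other mice, of the same strain and age, were given that dose of Ad-control, the empty adenovirus vector, so both groups carried a viral vector. Livers were taken on day 3 and combined within a group before labelling of 10 ug RNA, 3 livers in the Ad-PDK4 pool and 4 in the Ad-control pool. Each group is therefore 1 array of 1 pool. Variation between mice cannot be measured, no p-value was computed, and every value describes these 2 pools.

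In the liver lobule, Wnt ligands and R-spondins from central vein endothelium reach the nearest hepatocytes. There they bind Frizzled receptors with the LRP coreceptors, which stops the destruction complex of Axin, APC and GSK3 from removing beta-catenin. Beta-catenin then enters the nucleus and, with TCF factors, switches on genes of glutamine synthesis, ammonium transport and drug metabolism, as well as feedback inhibitors of the pathway itself. The arrays read whole liver, so they do not show in which zone a transcript lay, and fewer pericentral cells cannot be told apart from less RNA per cell.

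Axin2 and Rnf43, feedback inhibitors of the pathway, were lower in the Ad-PDK4 pool by 1.85-fold and 1.57-fold, while Rhbg, Lect2 and Lgr5 were close to equal in the pools. On the log2 scale, Ad-PDK4 minus Ad-control was below 0 for 9 of 10 genes, against 46.7% of the 12121 named genes measured. Lect2, 1 of these 9, was above 0 under 3 alternative settings. The brightest probe set of Nkd1 was at least 1.5-fold lower too, and the brightest probe set of Tbx3 was at least 1.5-fold higher. That made 3 of 10 genes lower, against 5.58% of all measured genes, and 1 of 10 higher, against 11.0%. The counts were 0 lower and 0 higher with the floor at percentile 70, and 2 lower and 0 higher with the median of each gene's probe sets. Glul, the classical marker of the pericentral zone, was 1.29-fold lower and stayed within 1.5-fold. The median of the list was -0.24 with the bound of Nkd1 included, and that of all measured genes was 0.02. Over genes measured on both arrays, the medians were -0.15 for 9 members and 0.01 for all genes. With the floor at percentile 70 the list median was -0.09, and with the median of each gene's probe sets it was -0.06.

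With no replicate arrays, error was gauged by how far probe sets of a gene disagree. The pooled SD of their log2 differences was 0.35 over 4326 genes, and 0.42 over the 1960 of them with a mean signal under 500. It leaves out error shared by a whole array and the variation between mice. A probe set counted as measured at or above the floor, a signal of 99.9 on the Ad-PDK4 array and 93.4 on the Ad-control array. Of the 21 probe sets, 12 were measured on both arrays, 3 on the Ad-PDK4 array alone, 1 on the Ad-control array alone and 5 on neither. A probe set measured on 1 array has only a bound, which sets its signal against the other array's floor. Over 24 probe sets of poly-A control transcripts, added in unstated amounts, the median log2 difference was -0.54. For hybridization controls it was -0.26 over 18 probe sets. Members between these values and 0 therefore have a direction only relative to the median probe set. Every fold is relative to it too, and 1.5-fold is a log2 difference of 0.585, close to the size of the poly-A value. Axin2 (-0.89), Rnf43 (-0.65) and the bound of Nkd1 (-0.96) lay less than 0.585 below the poly-A value. Relative to that value, none of them was thus shown to be 1.5-fold lower. Relative to the hybridization value, Axin2 and the Nkd1 bound stayed past 1.5-fold and Rnf43 did not. Tbx3 (0.78) was farther from either control value than from 0. Which reference is right was not tested. Pdk4 itself was not higher: its only probe set gave 177 in the Ad-PDK4 pool and 234 in the Ad-control pool. Whether that probe set reads the vector's transcript is not stated, so it does not check the labels, and every direction rests on them.

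**Figure D1:**
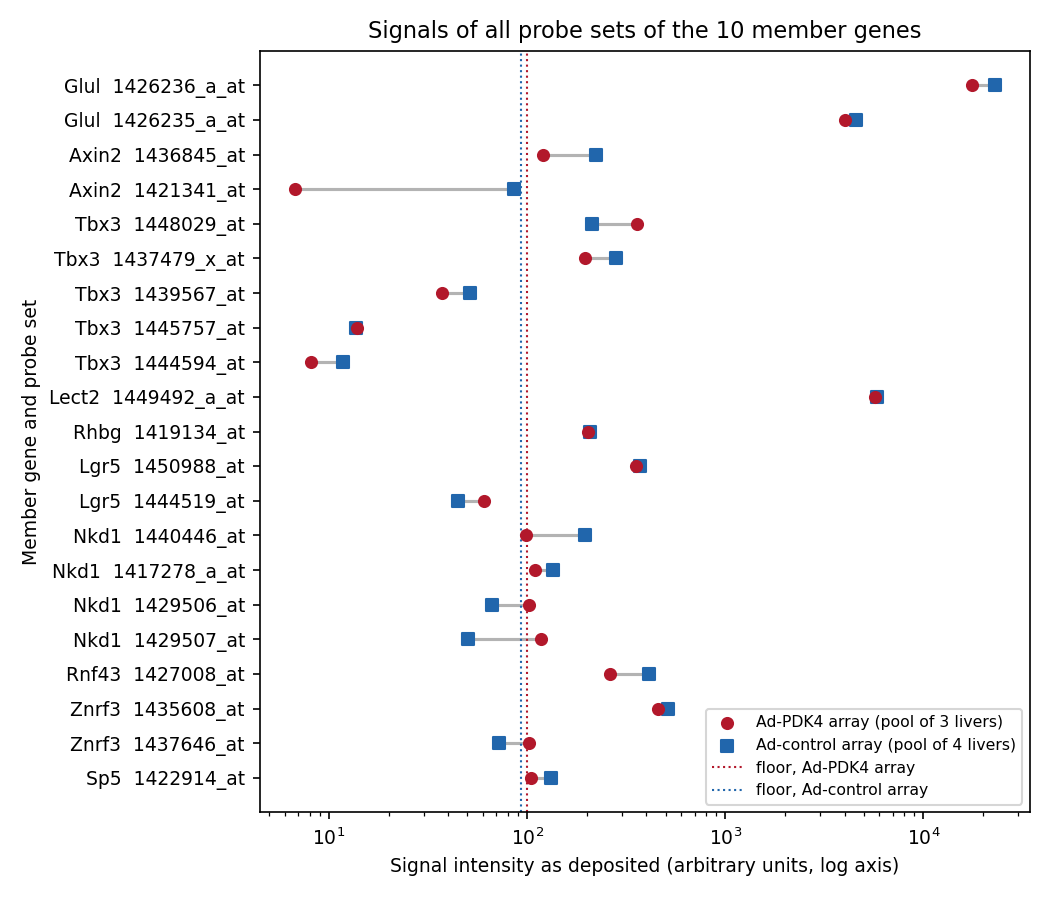
Deposited signal (log axis) of each of the 21 probe sets of the 10 genes on the Ad-PDK4 array (circles) and the Ad-control array (squares), with the floor of each array as a dotted line. Glul and Lect2 lie far above the floors. The highest signal of any other member is 515.6, of Znrf3 on the Ad-control array, and several probe sets lie far under the floors.

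Of the genes for pericentral metabolism or secretion, none was past 1.5-fold. Glul encodes glutamine synthetase, which captures ammonia that escaped the urea cycle. Its brightest probe set gave a signal of 17603 in the Ad-PDK4 pool and 22922 in the Ad-control pool, a log2 difference of -0.37. Its other probe set gave 4045 in the Ad-PDK4 pool and 4581 in the Ad-control pool, a log2 difference of -0.17. Both probe sets were thus lower in the Ad-PDK4 pool, by about the size of the pooled SD or less. Among the 1052 genes with a mean signal of 5000 and over, 11% were as low or lower than Glul.

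Rhbg encodes an ammonium transporter of the hepatocyte membrane. Its only probe set gave 204.0 in the Ad-PDK4 pool and 208.4 in the Ad-control pool, a log2 difference of -0.02. Lect2 encodes a secreted protein of hepatocytes that was first described as a chemotactic factor for leukocytes. Its signal was 5727 in the Ad-PDK4 pool and 5812 in the Ad-control pool, a log2 difference of -0.01, which turned to 0.04 with loess centring or quantile normalization and to 0.01 with the floor at percentile 70. For these genes the pools differed by much less than the pooled SD.

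Lgr5, a receptor for R-spondins that marks hepatocytes next to the central vein, was also close to equal in the pools. Its measured probe set gave 353.4 in the Ad-PDK4 pool and 370.1 in the Ad-control pool, a log2 difference of -0.05. Its other probe set was under the floor on both arrays, at 60.9 in the Ad-PDK4 pool and 44.8 in the Ad-control pool, and gives no difference.

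Axin2 had the lowest difference among the members measured on both arrays. It encodes a scaffold of the beta-catenin destruction complex and is induced by the pathway that it restrains. The measured probe set gave 119.6 in the Ad-PDK4 pool and 223.5 in the Ad-control pool, 1.85-fold lower (log2 difference -0.89). The other Axin2 probe set gave 6.7 in the Ad-PDK4 pool and 85.6 in the Ad-control pool, under both floors, so it yields no fold. Among the 4304 genes measured on both arrays with a mean signal under 500, 2.21% were as low or lower than Axin2, and the SD of their differences was 0.54. With the floor at percentile 70 Axin2 was under it on both arrays.

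Rnf43 and Znrf3 encode related membrane ubiquitin ligases that remove Frizzled receptors from the cell surface and that R-spondins block. Rnf43 gave 260.5 in the Ad-PDK4 pool and 412.2 in the Ad-control pool, 1.57-fold lower on its only probe set (log2 difference -0.65). Of the 4304 dim genes, 6.18% were as low or lower. The brightest Znrf3 probe set gave 459.1 in the Ad-PDK4 pool and 515.6 in the Ad-control pool, a log2 difference of -0.15. The other gave 102.1 in the Ad-PDK4 pool and 71.8 in the Ad-control pool, where it was under the floor. The probe sets of Znrf3 thus pointed to opposite sides, and only Rnf43 of the 2 ligases was past 1.5-fold. Whether Rnf43 and Znrf3 differed from each other was not tested.

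Nkd1, which encodes a Dishevelled-binding inhibitor induced by Wnt signalling, had no settled direction. Its brightest probe set gave 98.5 in the Ad-PDK4 pool, just under the floor, and 195.9 in the Ad-control pool, at least 1.94-fold lower. A probe set measured on both arrays gave 109.5 in the Ad-PDK4 pool and 134.5 in the Ad-control pool, a log2 difference of -0.28. The remaining probe sets went the other way, with 102.4 and 117.3 in the Ad-PDK4 pool, against 66.7 and 50.1 in the Ad-control pool. On each of the 4 Nkd1 probe sets at least 1 array read near or under the floor, and their median was a log2 difference of -0.07.

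The 2 transcription factors of the list were dim as well. Tbx3, a T-box repressor, gave 359.0 in the Ad-PDK4 pool and 211.5 in the Ad-control pool on its brightest probe set, 1.71-fold higher. Its _x_at probe set, of a kind that can match several transcripts, gave 195.4 in the Ad-PDK4 pool and 280.4 in the Ad-control pool, a log2 difference of -0.51. The direction of Tbx3 is therefore not settled, and its other 3 probe sets were under both floors. Sp5, a zinc finger factor induced by beta-catenin, gave 104.4 in the Ad-PDK4 pool and 132.3 in the Ad-control pool, a log2 difference of -0.33 that is smaller than the pooled SD.

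Counted over probe sets, 3 of the 16 measured were at least 1.5-fold lower, against 7.06% of the 24896 measured on the arrays, and 1 was at least 1.5-fold higher, against 10.6%. Of the 16, 12 were below 0, against 48.1% of all probe sets measured. The others were 1 of Tbx3, measured on both arrays, and 3 of Nkd1 and Znrf3, measured on the Ad-PDK4 array alone. Differences scattered more among dim genes. Of the 9 genes measured on both arrays, 7 had a mean signal under 500, and 2 of these 7 were at least 1.5-fold lower and 1 higher. In that range 7.74% of all genes were lower and 15.2% higher. The other 2, Glul and Lect2, were in the range of 5000 and over, where 2.47% were lower and 1.81% higher, and both lay within 1.5-fold.

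**Figure D2:**
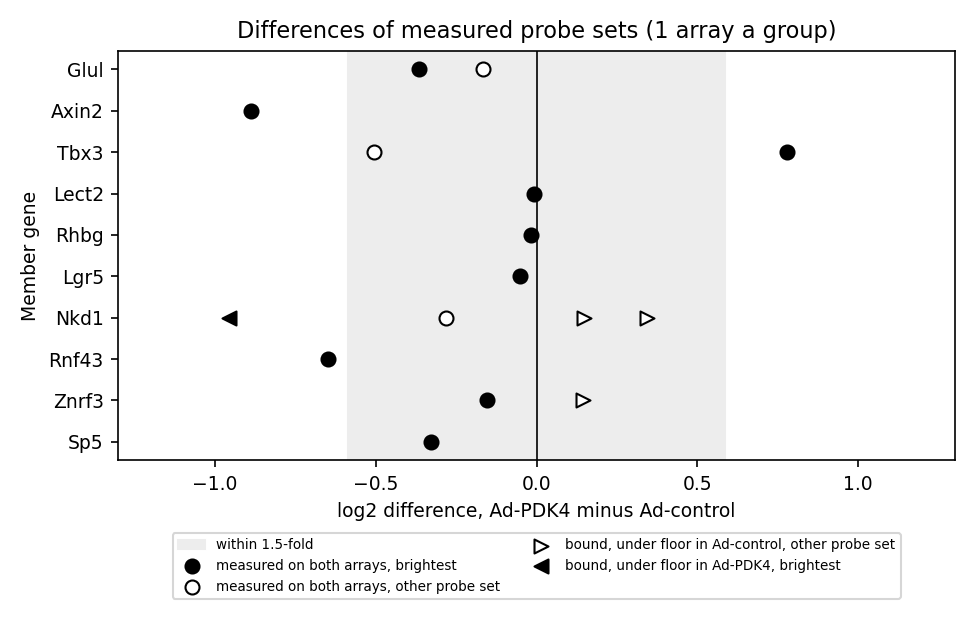
Difference on the log2 scale (Ad-PDK4 minus Ad-control) of each measured probe set, by gene. Filled symbols are the brightest probe set of a gene and open symbols the others. Triangles are bounds that point away from 0, and the grey band is within 1.5-fold. Tbx3, Nkd1 and Znrf3 have probe sets on both sides of 0.

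**Figure D3:**
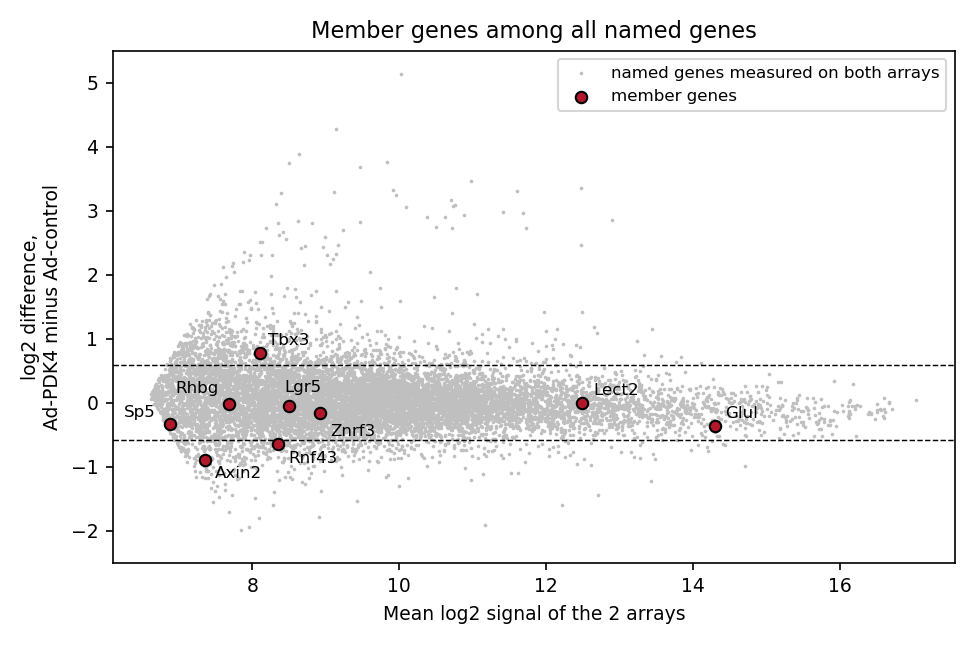
Difference on the log2 scale (Ad-PDK4 minus Ad-control) against the mean log2 signal of the 2 arrays for named genes measured on both (grey) and the 9 members among them (red). Dashed lines mark 1.5-fold. The members lie inside the spread of genes of like signal, with Axin2 and Rnf43 toward its lower edge and Tbx3 toward its upper part.

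Promoter sequence is shown for Axin2, which had the lowest difference measured on both arrays, and for Sp5 and Lect2. The windows of Sp5 and Lect2 hold CTTTGA, a form of the core letters that TCF factors bind. Other forms were not searched. The sequences are from RefSeq (GRCm38.p6) and run from 250 bases before to 50 bases after a transcript start. Windows were found for 6 of the 10 genes (7 windows). The letters searched were CTTTGA on either strand, so TCAAAG is the same match on the opposite strand, and matches are in capitals. Sp5 lies at chr2:70474673-70474972 on the plus strand, Lect2 at chr13:56548489-56548788 on the minus strand and Axin2 at chr11:108920099-108920398 on the plus strand.
Sp5: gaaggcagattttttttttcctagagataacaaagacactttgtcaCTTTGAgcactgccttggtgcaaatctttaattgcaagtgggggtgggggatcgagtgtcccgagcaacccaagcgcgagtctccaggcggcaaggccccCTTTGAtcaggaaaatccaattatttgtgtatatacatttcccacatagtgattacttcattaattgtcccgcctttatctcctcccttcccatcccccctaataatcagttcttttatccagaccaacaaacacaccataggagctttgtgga
Lect2: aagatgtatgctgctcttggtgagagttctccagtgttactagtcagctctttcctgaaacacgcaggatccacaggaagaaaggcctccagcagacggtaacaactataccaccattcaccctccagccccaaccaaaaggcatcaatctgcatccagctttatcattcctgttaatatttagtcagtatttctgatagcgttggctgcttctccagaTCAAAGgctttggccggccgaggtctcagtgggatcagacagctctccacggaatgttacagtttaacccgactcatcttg
Axin2: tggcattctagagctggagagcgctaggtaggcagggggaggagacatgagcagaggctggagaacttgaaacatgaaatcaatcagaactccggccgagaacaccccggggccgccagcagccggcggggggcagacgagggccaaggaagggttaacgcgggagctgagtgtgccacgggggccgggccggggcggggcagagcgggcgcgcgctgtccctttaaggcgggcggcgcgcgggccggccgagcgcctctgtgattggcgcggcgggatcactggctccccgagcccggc

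The Sp5 window holds the letters at 2 places, whose first bases lie 204 and 104 bases before the start, and the Lect2 window holds them once, from 31 bases before it. The windows of Axin2, Glul, Nkd1 and Rnf43 hold no match. Of all 32851 promoter windows of this length, 16.0% hold at least 1 match. A match describes letters only. The pools differed by -0.33 for Sp5 and -0.01 for Lect2 on the log2 scale, and by -0.89 for Axin2, whose window has none.

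Other genes of the pericentral zone were set beside the members. Among 26 measured genes, 2 were at least 1.5-fold lower and 0 were higher, and their median log2 difference was -0.20. Slc1a2, a glutamate transporter of the Glul-positive hepatocytes, gave 1805 in the Ad-PDK4 pool and 3086 in the Ad-control pool (-0.76), although another of its probe sets gave 0.43. Slc13a3, a dicarboxylate transporter, gave -0.94, with other probe sets up to 0.56. The third lowest was the cytochrome P450 gene Cyp2c50 (-0.55). At the top were the vasopressin receptor gene Avpr1a (0.57, and -0.43 on its other probe set), Cyp7a1, the rate-limiting enzyme of bile acid synthesis (0.23), and the heme synthesis gene Alad (0.17, and -0.20 on its other probe set).

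Genes of the opposite, periportal zone had a median of -0.18 over 23 measured genes, with 3 at least 1.5-fold lower and 0 higher. The lower genes were Etnppl, a phospholyase of phosphoethanolamine (-0.98), Hal, histidine ammonia-lyase (-0.87), and Cdh1, E-cadherin (-0.61). G6pc, glucose-6-phosphatase (0.50), Hsd17b13, a lipid droplet protein (0.36), and Aldh1b1, an aldehyde dehydrogenase (0.09), were the highest. The bright genes of both zones belong to a range of signals whose own median was below 0, at -0.08 for signals of 5000 and over. With quantile normalization the medians were -0.07 for the other pericentral genes and -0.10 for the periportal genes. Whether the lists differ was not tested.

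Wnt ligands and their agonists were near the limit of measurement. Of 25 genes on the array, 12 were measured, 13 were under both floors, 1 was at least 1.5-fold higher and 1 lower. Wnt2, a ligand of liver endothelium, gave 204.2 in the Ad-PDK4 pool and 142.0 in the Ad-control pool, a log2 difference of 0.54. Rspo3, the R-spondin of central vein endothelium, gave 208.8 in the Ad-PDK4 pool and 254.0 in the Ad-control pool (-0.27). Wnt9b, the other endothelial ligand of the central vein, named after its values were seen, was under both floors. Porcn and Wls, needed for Wnt secretion, gave -0.37 and -0.20. Wnt8b (0.92) and Wnt7a (0.52) were the other high members, and Wnt5b, measured in the Ad-control pool alone, was at least 1.62-fold lower.

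Among receptors outside the members, 4 of 14 measured were at least 1.5-fold lower and 1 was higher, against 5.58% and 11.0% of all measured genes. The median was -0.28 with the bounds of Lrp5 and Ror1 included, and -0.15 over the 12 measured on both arrays. The Frizzled genes split. Fzd4 gave 922.1 in the Ad-PDK4 pool and 1428 in the Ad-control pool (-0.62), and Fzd7 gave 267.3 in the Ad-PDK4 pool and 431.7 in the Ad-control pool (-0.68). Fzd1 went the other way, with 974.5 in the Ad-PDK4 pool and 568.5 in the Ad-control pool (0.79), and both of its probe sets were above 0. Fzd8 (0.52) and the R-spondin receptor Lgr4 (0.20) followed it. Ryk, a Wnt-binding receptor, gave -0.77 on its brightest probe set and 0.39 on another, and Ror1, measured in the Ad-control pool alone, was at least 2.12-fold lower.

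The intracellular machinery had a median at that of all genes, 0.02 over 23 measured genes, with 1 at least 1.5-fold higher and 2 lower. Ctnnb1, beta-catenin itself, named after its values were seen, gave 10966 in the Ad-PDK4 pool and 9128 in the Ad-control pool, and its 3 probe sets ranged from 0.23 to 0.28. Tcf7l2, the main TCF factor of hepatocytes, gave 264.0 in the Ad-PDK4 pool and 401.7 in the Ad-control pool (-0.59), with other probe sets up to -0.04. The corepressor gene Tle3 (-0.85) and the coactivator gene Bcl9 (-0.48) were low too. Btrc, which marks beta-catenin for degradation, was higher (0.61, and 1.11 on its other measured probe set), followed by Tnks (0.46), whose product destabilizes Axin, and Pygo2 (0.34).

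Secreted and intracellular antagonists had 1 of 11 measured genes at least 1.5-fold lower and 1 higher. The lower gene was Notum, whose product inactivates Wnt proteins by removing their lipid, with 598.5 in the Ad-PDK4 pool and 973.9 in the Ad-control pool (-0.69). Dact2 (-0.53) and Dact1 (-0.44) came next, and Kremen1 (0.36), Apcdd1 (0.27) and Sfrp4 (0.15) were the highest. Dkk4, measured in the Ad-PDK4 pool alone, was at least 1.53-fold higher. Beta-catenin targets known mainly from other tissues had 4 of 12 lower and 0 higher. Id2, an inhibitor of helix-loop-helix factors, gave 2126 in the Ad-PDK4 pool and 4617 in the Ad-control pool (-1.10), and all of its 3 probe sets were below 0. Ccnd1, the cyclin of early G1, gave 1324 in the Ad-PDK4 pool and 2718 in the Ad-control pool (-1.02), and Vegfa gave -0.75, with 0.13 on its other probe set. Lbh had only a bound, at least 1.81-fold lower. Myc (0.51), Mitf (0.42) and Jun (0.24, and -0.27 on its other probe set) were the highest.

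**Figure D4:**
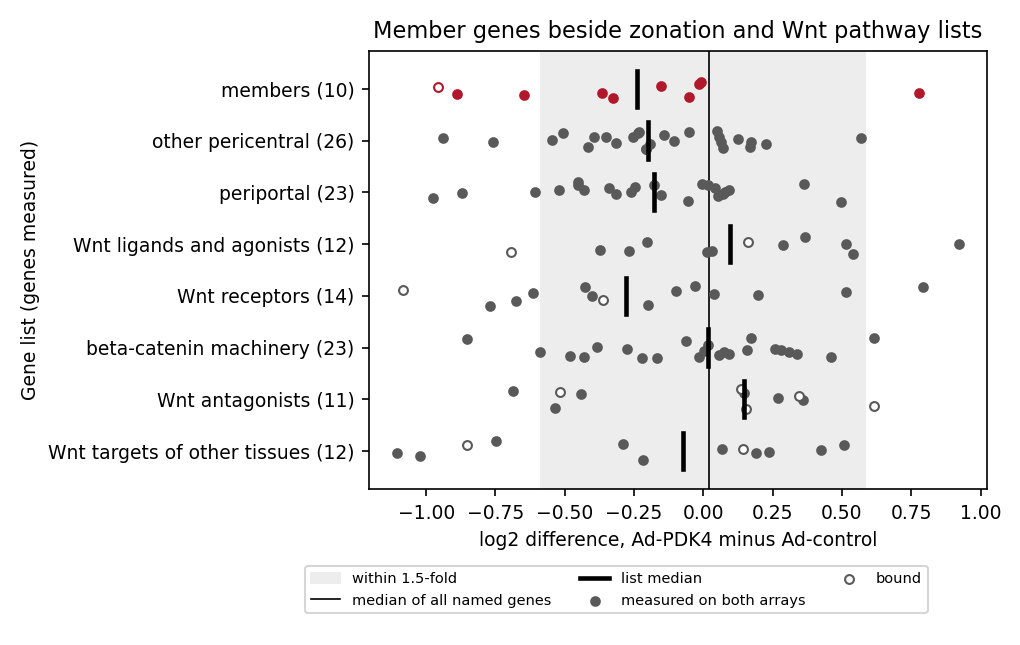
Difference on the log2 scale (Ad-PDK4 minus Ad-control) of each measured gene of the 10 members (red) and of 7 other lists (grey), with list medians as bars. Open circles are bounds, the grey band is within 1.5-fold and the thin line is the median of all named genes. List medians are -0.24 for the members, -0.20 for the other pericentral genes and -0.18 for the periportal genes. The members' median includes the bound of Nkd1, and over the 9 members measured on both arrays it is -0.15. The other pericentral and the periportal list hold no bounds.

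Markers of cell types were read on the same arrays. All 7 hepatocyte markers measured were within 1.5-fold (median -0.10). Endothelial markers, from cells that make hepatic Wnt ligands, had a median of -0.12 with 1 of 12 higher and 2 lower, and summed signals of 14571 in the Ad-PDK4 pool and 16780 in the Ad-control pool. All 10 exocrine pancreas markers were higher, with a median of 3.28 and summed signals of 69862 in the Ad-PDK4 pool and 7612 in the Ad-control pool. All 9 cell cycle markers were higher, with a median of 3.11 that includes the bounds of Aurkb, Bub1 and Plk1. Over the 6 measured on both arrays the median was 3.58. Summed signals of the 9 were 14505 in the Ad-PDK4 pool and 996 in the Ad-control pool. Skeletal muscle markers were lower in 4 of 5 cases (median -0.86), with summed signals of 1533 in the Ad-PDK4 pool and 2804 in the Ad-control pool. Of bile duct markers 3 of 6 were measured. Epcam gave -0.52, and Krt19 and Prom1, measured in the Ad-control pool alone, were at least 1.22-fold and 1.32-fold lower, with summed signals of 430 in the Ad-PDK4 pool and 661 in the Ad-control pool. Krt7, Sox9 and Cftr of bile duct and Actn3 of skeletal muscle were under both floors, but the summed signals of these lists include them. The part of these cells in the members' differences was not tested.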

How the data were processed

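Liver RNA from 2 pools was measured on 1 array each. The deposited values are intensity values, 1 per probe set. Per the labels' protocols, they come from biotinylated cRNA. The sources used here do not state summary software or background correction. On both arrays the mean without the top and bottom 2% of the deposited intensity values is 500.0, so differences are relative within a pool.

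Signals were converted to log2, with a floor at percentile 50 of each array's non-control probe sets. Differences, Ad-PDK4 minus Ad-control, were centred by -0.01, the median over the 20151 probe sets that reached the floor in each pool. Each gene took the value of its brightest probe set (mean log2 signal). Of 34958 probe sets with 1 symbol, 34754 were found in RefSeq by Entrez identifier, and 0 symbols changed. Another 932 carried several symbols and were not named. Python 3.11.15, pandas 2.3.3, numpy 2.4.6 and statsmodels 0.14.6 were used, and the steps were tested on simulated data.

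With 1 array a group, no test was run. The number of arrays limits the precision. The members and the 13 gene lists beside them were chosen with earlier results of these data known. Genes named from those lists are the up to 3 highest and up to 3 lowest measured on both arrays, and bounds of at least 1.5-fold. Exceptions are marked. Alternatives were floors at percentiles 30 and 70, no centring, loess (span 0.3), quantile normalization, the median of a gene's probe sets, and leaving out _x_at and _s_at probe sets.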

Additional observations from a re-analysis of the deposited data

How the results depend on the processing

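The counts of members past 1.5-fold followed the floor. With the floor at percentile 70, 0 members were at least 1.5-fold lower and 0 higher, since Axin2, Nkd1, Rhbg and Sp5 were then under it on both arrays and Rnf43 and Tbx3 had only bounds. With the median of a gene's probe sets, 0 were higher and 2, Axin2 and Rnf43, were lower. The other 5 alternatives gave 3 lower and 1 higher. The median of the members was -0.087 with the floor at percentile 70 and -0.060 with the median of a gene's probe sets, and stayed between -0.25 and -0.21 under the other 5. That of the other pericentral genes was -0.11 with loess and -0.068 with quantile normalization, and that of the periportal genes -0.10 with quantile normalization. The median of the beta-catenin machinery, near 0, was 0.063 and 0.032 with floors at percentiles 30 and 70, 0.0022 without centring, 0.030 with loess, 0.082 with the median of probe sets and 0.055 without _x_at and _s_at probe sets. Of 66 values of single members, 3 changed sign, all of Lect2, and 3 moved by more than the pooled SD, those of Tbx3 (0.36 and 0.14) and Nkd1 (-0.07). No paired analysis was possible because each group is 1 array. Of the 9 members measured on both arrays, 7 had a mean signal under 500, so signal over background limits what these arrays can show of them.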
